A study of Mus musculus with 12 samples.

Results

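Mouse C2C12 myoblasts depleted of the chromatin-remodelling subunit BAF60b were compared with C2C12 myoblasts depleted of the remodelling ATPase BRG1, at the same time in differentiation medium and across all genes measured. The 2 siBAF60b arrays and the 2 siBRG1 arrays were taken by their transfection labels, 4 of the 12 arrays of the series. C2C12 is an established mouse myoblast line that leaves the cell cycle and forms myotubes when serum is withdrawn. In siBAF60b and siBRG1 cells alike, a pool of siRNAs was transfected in growth medium with 15% serum, ITS differentiation medium followed 36 h later, and RNA was taken 18 h after that. Cells given a scrambled siRNA (siScramble, 2 arrays) went through the same schedule. So did cells given siRNA against the related subunit BAF60c (siBAF60c, 2 arrays), which entered the fit and are described in the last paragraph. Untransfected cells in differentiation medium (DM, 2 arrays) and in growth medium (GM, 2 arrays) are used below to say what differentiation itself does to a gene. Each siRNA was a pool used at 1 time point, with no second pool and no rescue in the samples analysed, and the knockdowns left transcript of both targets.

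BRG1 is an ATPase that drives the SWI/SNF (BAF) complex, which slides and evicts nucleosomes. BAF60 proteins are accessory subunits of the complex that contact DNA-binding factors, and cells hold alternative forms: BAF60a, BAF60b and BAF60c, encoded by Smarcd1, Smarcd2 and Smarcd3. In muscle cells, the bHLH factor MyoD and BRG1-containing complexes act together at muscle promoters, and BAF60c is the form known for binding MyoD. The comparison asks where losing 1 accessory subunit and losing the motor subunit leave myoblasts in different states at the same hour of differentiation.

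Levels are background-corrected, quantile-normalized probe signals on the log2 scale, and a difference is siBAF60b minus siBRG1 from 2 arrays per group, with its standard error (SE). The fit covered 10346 genes, and a gene was called at a Benjamini-Hochberg adjusted p under 0.05 in limma. Replicate 1 of both groups was on the same BeadChip, while replicate 2 of the groups was on different BeadChips. The siScramble arrays were on the same BeadChips as the siBAF60b arrays of the same number. Replicate 2 of siBRG1 therefore shared no BeadChip with replicate 2 of siScramble. The part of the BeadChip in how near a gene lay to siScramble was not tested. The labels give replicate numbers 1 and 2 and do not say that these were separate cultures, so a p-value here may rest on technical spread alone. Between 13236 and 15025 of the 45281 probes were detected on each of the 4 arrays, and the arrays of a group correlated at 0.985 in siBAF60b and 0.988 in siBRG1 over genes. With 2 arrays against 2, an exact permutation test of a single gene cannot go below a two-sided p of 0.333.

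The siRNA targets were read first. Smarcd2, which encodes BAF60b, was 8.10 and 8.34 in siBAF60b cells, 10.09 and 9.49 in siBRG1 cells and 9.83 and 9.71 in siScramble cells. Both siBAF60b arrays lay below all 4 others, and the difference from siBRG1 was -1.57 (SE 0.39), which did not pass over all genes (limma adjusted p = 0.190). Smarca4, which encodes BRG1, was 7.78 and 6.84 in siBAF60b cells, 6.77 and 6.38 in siBRG1 cells and 7.77 and 7.20 in siScramble cells. The siBAF60b and siBRG1 arrays of Smarca4 did not overlap but came close, since siBAF60b replicate 2 (6.84) stood next to siBRG1 replicate 1 (6.77), and the difference of 0.74 (SE 0.37) did not pass (limma adjusted p = 0.870). The labels therefore go with lower Smarcd2 signal in siBAF60b cells than in siBRG1 cells, and less clearly with lower Smarca4 signal in siBRG1 cells.

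**Figure D1:**
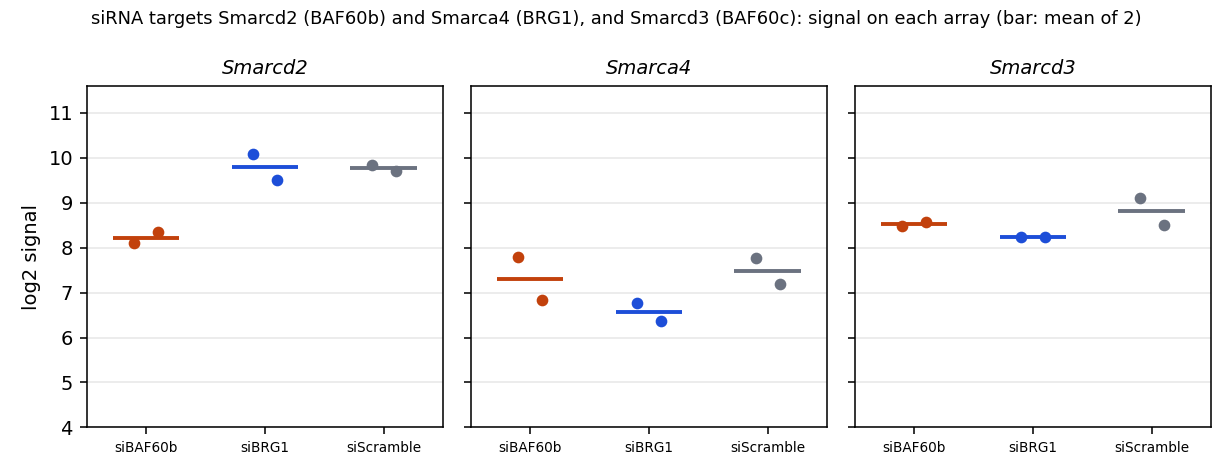
Log2 signal of Smarcd2, Smarca4 and Smarcd3 on each array, with the mean of the 2 arrays of a group as a bar. Smarcd2 separates siBAF60b (8.10 and 8.34) from siBRG1 (10.09 and 9.49), while the Smarca4 arrays of the siBAF60b and siBRG1 groups lie close to each other.

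Of 28 genes for BAF subunits 24 were measured, and none was called. Their median difference was -0.06, against -0.02 over all genes tested. Outside the targets, 3 subunits differed by more than 0.5: Arid1a, the DNA-binding BAF250a subunit, by -0.90 (SE 0.42), Bicral by -0.52 (SE 0.29) and Bcl7a by -0.51 (SE 0.27). Arid1a was dim, at 4.77 and 5.29 in siBAF60b cells, where it was detected on 1 of the 2 arrays, against 5.87 and 5.99 in siBRG1 cells. Smarcd3, for BAF60c, was 8.47 and 8.57 in siBAF60b cells and 8.23 and 8.24 in siBRG1 cells, a difference of 0.29 (SE 0.35). Smarca2, for the alternative ATPase BRM, differed by -0.16 (SE 0.25), with a second, dimmer probe at 0.70. Smarcd3 and Smarca2 were chosen for mention after their values were seen.

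Across all genes, 6 were called higher in siBAF60b cells (0.058% of 10346) and 3 lower (0.029%). At an unadjusted p under 0.05, 322 genes were higher (3.11%) and 304 lower (2.94%), 626 in all, where 517.3 would be expected by chance. Arrays did not overlap for 1986 genes in the higher direction (19.2%) and 2250 in the lower (21.7%). Only 95 genes differed by more than 1 upwards and 93 by more than 1 downwards, with a median SE of 0.31. The 9 calls did not hold when any 1 of the 4 arrays was left out (0 calls each time), when the BeadChip was a fixed block in the fit (0 calls) or with median scaling in place of quantile normalization (0 calls). Without background correction, and again with the authors' processed values, 8 genes were called and 4 of them were among the 9. Without the 2 DM arrays, whose replicates were the most unequal of the series, the count was 52.

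The genes called higher were a secreted hormone, a secreted peptide precursor, a hormone receptor, a potassium channel and a pair of glutathione transferases. Stc1, for the secreted glycoprotein stanniocalcin 1, was 10.78 and 11.03 in siBAF60b cells, against 8.90 and 9.01 in siBRG1 cells, with 9.80 and 9.70 in siScramble cells. The siScramble arrays lay between those of the siBAF60b and siBRG1 groups, and the difference was 1.95 (SE 0.27, limma adjusted p = 0.0385), or 3.86-fold. On the shared BeadChip the difference was 1.89.

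Mgst2, a microsomal glutathione transferase, was 9.07 and 9.15 in siBAF60b cells, 7.33 and 7.28 in siBRG1 cells and 9.01 and 9.19 in siScramble cells. Gstm2, a cytosolic mu-class glutathione transferase, was 11.06 and 11.06 in siBAF60b cells, 9.29 and 9.51 in siBRG1 cells and 10.83 and 10.90 in siScramble cells. For both enzymes the siBAF60b arrays lay close to the siScramble arrays, and the siBRG1 arrays stood apart below. Mgst2 differed by 1.80 (SE 0.30, limma adjusted p = 0.0385) and by 1.74 on the shared BeadChip. Gstm2 differed by 1.66 (SE 0.25, limma adjusted p = 0.0385) and by 1.77 on the shared BeadChip, and its 2 other probes gave 1.55 and 1.71. Mu-class transferases are similar in sequence, so a probe may read more than 1 of them.

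Avpr1a, for the vasopressin receptor V1a, was 8.76 and 9.0 in siBAF60b cells, 6.70 and 7.28 in siBRG1 cells and 6.73 and 7.39 in siScramble cells. Kcnh2, for the ERG potassium channel, was 7.50 and 7.32 in siBAF60b cells, 5.74 and 5.87 in siBRG1 cells and 6.10 and 6.30 in siScramble cells. In both genes the siBAF60b arrays lay above the other 4. The siScramble arrays lay with siBRG1 for Avpr1a, and between the siBAF60b and siBRG1 arrays for Kcnh2. Avpr1a differed by 1.89 (SE 0.32, limma adjusted p = 0.0473), but a second, dimmer probe gave 0.17. Kcnh2 differed by 1.60 (SE 0.27, limma adjusted p = 0.0473), and its 2 other probes, both dimmer, gave 0.50 and -0.10. On the shared BeadChip Avpr1a differed by 2.06 and Kcnh2 by 1.76.

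Ecrg4, for a secreted peptide precursor, was 7.03 and 6.92 in siBAF60b cells, 4.85 and 5.28 in siBRG1 cells and 6.61 and 6.0 in siScramble cells. It was not detected on either siBRG1 array, so its signal was at least 3.14-fold higher in siBAF60b cells, against the lowest signal of a detected probe on those arrays (limma adjusted p = 0.0385). On the shared BeadChip the measured values differed by 2.18.

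All 3 genes called lower in siBAF60b cells had siBAF60b values near those of siScramble cells and siBRG1 values above both. Sema7a, a membrane-anchored semaphorin, was 6.51 and 6.66 in siBAF60b cells, 8.61 and 8.42 in siBRG1 cells and 6.71 and 6.32 in siScramble cells. Its difference was -1.93 (SE 0.31, limma adjusted p = 0.0385), and -2.10 on the shared BeadChip. Nefm, the medium neurofilament chain, was 4.86 and 4.85 in siBAF60b cells, against 6.82 and 6.66 in siBRG1 cells. Crabp1, a cytoplasmic retinoic acid-binding protein, was 4.67 and 4.78 in siBAF60b cells, against 6.48 and 6.49 in siBRG1 cells.

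Nefm and Crabp1 were not detected on any siBAF60b or siScramble array. Their signal in siBAF60b cells was therefore at least 2.64-fold lower for Nefm and at least 2.21-fold lower for Crabp1 than in siBRG1 cells, by the same bound (limma adjusted p = 0.0385 for each). A second Nefm probe gave -0.73. On the shared BeadChip the measured differences were -1.96 for Nefm and -1.81 for Crabp1.

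**Figure D2:**
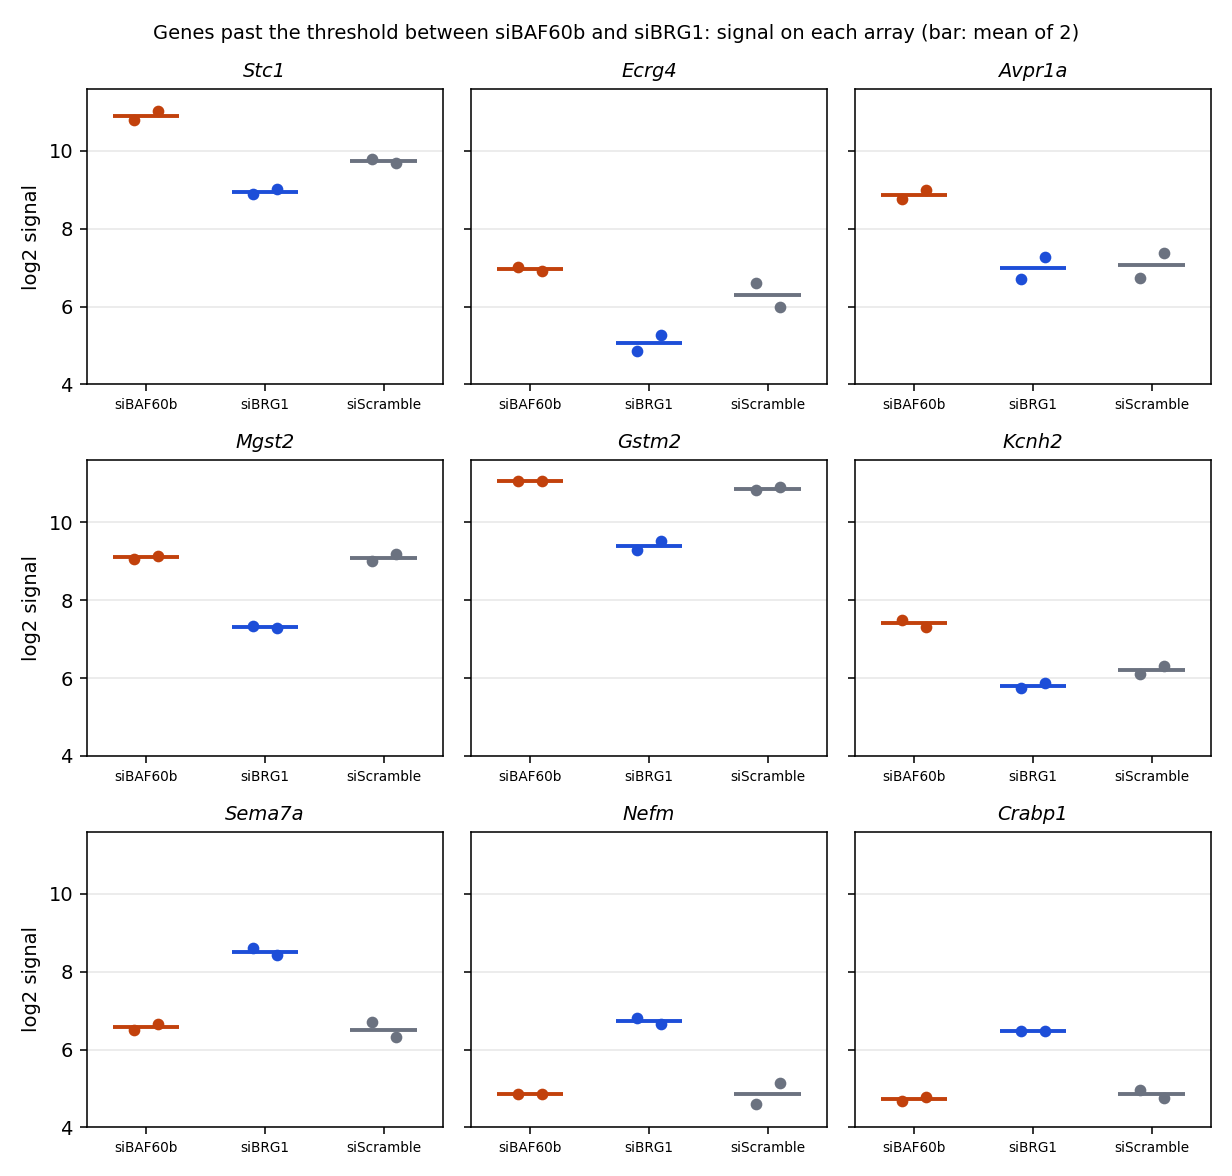
Log2 signal on each array for the 9 genes called between siBAF60b and siBRG1, with siScramble beside them and the mean of 2 arrays as a bar. The siBAF60b and siBRG1 arrays do not overlap in any panel; siScramble lies with siBAF60b for Mgst2, Gstm2, Sema7a, Nefm and Crabp1, with siBRG1 for Avpr1a, and between them for Stc1, Ecrg4 and Kcnh2.

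RefSeq promoter sequence (build GRCm38.p6) was at hand for 7 of the 9 called genes, and 4 are shown because they span both directions and the glutathione transferase pair. Each is the 250 bases before the gene's start, read 5′ to 3′ on the gene's strand. Capitals mark E-boxes (CANNTG, the motif that MyoD and other bHLH factors bind) and AP-1 sites (TGANTCA, the Fos and Jun motif), searched on both strands; neither overlaps the other in these windows. The windows are chr3:107986421-107986670 (minus strand) for Gstm2, chr3:51660929-51661178 (plus) for Mgst2, chr10:122448249-122448498 (plus) for Avpr1a and chr9:57939862-57940111 (plus) for Sema7a.
Gstm2: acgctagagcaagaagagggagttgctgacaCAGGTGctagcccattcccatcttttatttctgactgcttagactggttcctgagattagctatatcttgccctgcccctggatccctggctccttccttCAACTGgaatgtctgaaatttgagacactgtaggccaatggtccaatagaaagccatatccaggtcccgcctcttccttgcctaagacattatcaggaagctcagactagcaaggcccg
Mgst2: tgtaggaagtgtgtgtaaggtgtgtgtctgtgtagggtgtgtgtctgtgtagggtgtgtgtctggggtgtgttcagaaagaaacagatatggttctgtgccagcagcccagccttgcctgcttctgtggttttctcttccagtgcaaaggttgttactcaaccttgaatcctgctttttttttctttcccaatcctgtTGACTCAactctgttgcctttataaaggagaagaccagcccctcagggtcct
Avpr1a: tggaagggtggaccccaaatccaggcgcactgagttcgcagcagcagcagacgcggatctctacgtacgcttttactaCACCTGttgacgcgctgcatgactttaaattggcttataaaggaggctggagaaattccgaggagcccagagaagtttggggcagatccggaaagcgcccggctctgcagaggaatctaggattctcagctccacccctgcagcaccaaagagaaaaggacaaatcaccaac
Sema7a: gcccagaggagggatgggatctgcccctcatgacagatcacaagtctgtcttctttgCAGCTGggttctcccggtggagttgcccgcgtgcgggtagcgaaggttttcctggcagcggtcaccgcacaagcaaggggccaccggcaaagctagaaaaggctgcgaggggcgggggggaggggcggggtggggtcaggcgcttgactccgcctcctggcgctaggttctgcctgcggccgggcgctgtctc

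Gstm2 held 2 E-boxes, starting 219 and 119 bases before the gene's start, Avpr1a held 1 at 172 bases and Sema7a held 1 at 193 bases, the CAGCTG form. Mgst2 held no E-box and 1 AP-1 site, 52 bases before the start. The 15 genes named in each direction below had an entry in 12 cases each: E-boxes lay in 8 of the 12 higher genes and 9 of the 12 lower genes, against 66% of 27025 promoters of the same length. AP-1 sites lay in 1 of 12 and 0 of 12, against 6.87% of all promoters, and the core of the antioxidant response element (TGACNNNGC) in 1 of 12 and 2 of 12, against 10.1%. These are matches of letters in a window and not evidence of binding.

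The next genes in each direction by unadjusted p, with arrays that did not overlap, filled the named genes to 15 and did not pass the adjusted threshold. On the higher side, Lpl, the lipoprotein lipase, was 8.69 and 9.11 in siBAF60b cells and 7.12 and 7.36 in siBRG1 cells, a difference of 1.66 (SE 0.30, limma adjusted p = 0.0602). Gpx3, the secreted glutathione peroxidase, differed by 1.61 (SE 0.29) and Dpt, the matrix protein dermatopontin, by 2.02 (SE 0.36), both at a limma adjusted p of 0.0602. Dpt was detected on only 1 siBRG1 array. The other 6 were Gstk1, a kappa-class glutathione transferase (1.86, its second probe 1.81), Hr, the corepressor hairless (1.84, its second probe 0.74), Htra3, a secreted serine protease (1.70), Cdhr1, a cadherin (1.64), Diras1, a Ras-like GTPase (1.61), and Lrrn1, a leucine-rich membrane protein (1.33), with limma adjusted p between 0.083 and 0.11.

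On the lower side, Sphk1, a sphingosine kinase, was 8.19 and 8.63 in siBAF60b cells and 10.01 and 9.88 in siBRG1 cells, a difference of -1.54 (SE 0.28, limma adjusted p = 0.0616). Slco4a1, an organic anion transporter, was not detected in siBAF60b cells, where its signal was at least 1.94-fold lower than in siBRG1 cells by the same bound. Hba-a1, an alpha-globin gene with a near-identical copy that its probe may also read, differed by -1.47 (SE 0.27). Both stood at a limma adjusted p of 0.0616. Lgals3bp, a secreted galectin-binding protein, was 5.08 and 5.98 in siBAF60b cells, where it was detected on 1 array, and 7.57 and 7.85 in siBRG1 cells, a difference of -2.18 (SE 0.42, limma adjusted p = 0.083). Of growth factors and signalling genes, Gdnf differed by -1.57, Errfi1, a feedback inhibitor of the EGF receptor, by -1.54, and Plau, urokinase, by -1.41. Fgf5 and Tmem229b were not detected in siBAF60b cells, with signal at least 2.57-fold lower for Fgf5 and at least 2.39-fold lower for Tmem229b than in siBRG1 cells. Atf3, a stress-induced transcription factor, differed by -1.53 and Osr2, a zinc-finger factor, by -1.27 (its second probe -1.32). Ranbp3l differed by -1.31, with siBAF60b values of 5.02 and 5.25 near background, and a second probe that was dim in both groups gave 0.43. Limma adjusted p in this group ran from 0.083 to 0.116.

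Each knockdown was also set against siScramble. Both comparisons use the same 2 siScramble arrays and are given side by side only. They are not alike in layout: siScramble shared its BeadChips with both siBAF60b arrays, but with only replicate 1 of siBRG1. At an unadjusted p under 0.05 in limma, 365 genes differed from siScramble in siBAF60b cells and 835 in siBRG1 cells. In each comparison 517.3 would be expected by chance. The siBAF60b cells had 1 gene called against siScramble (0.00967%) and the siBRG1 cells 29 (0.28%). These counts did not hold: median scaling gave 0 calls in both comparisons, and with any 1 array of a comparison left out they were 0 to 1 for siBAF60b and 1 to 3 for siBRG1. Among the 15 higher genes, Mgst2 stood at 0.01 in siBAF60b against siScramble and -1.79 in siBRG1 against siScramble, Htra3 at -0.04 and -1.74, and Hr at -0.12 and -1.96. Lpl stood at 1.10 in siBAF60b and -0.56 in siBRG1, and Dpt at 1.39 and -0.62. Among the 15 lower genes, Sema7a stood at 0.07 in siBAF60b and 2.00 in siBRG1, Sphk1 at -0.10 and 1.44, and Plau at -1.03 and 0.38. Nefm, Crabp1 and Slco4a1 were detected on no siBAF60b and no siScramble array, so no difference is given between those groups for them.

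**Figure D3:**
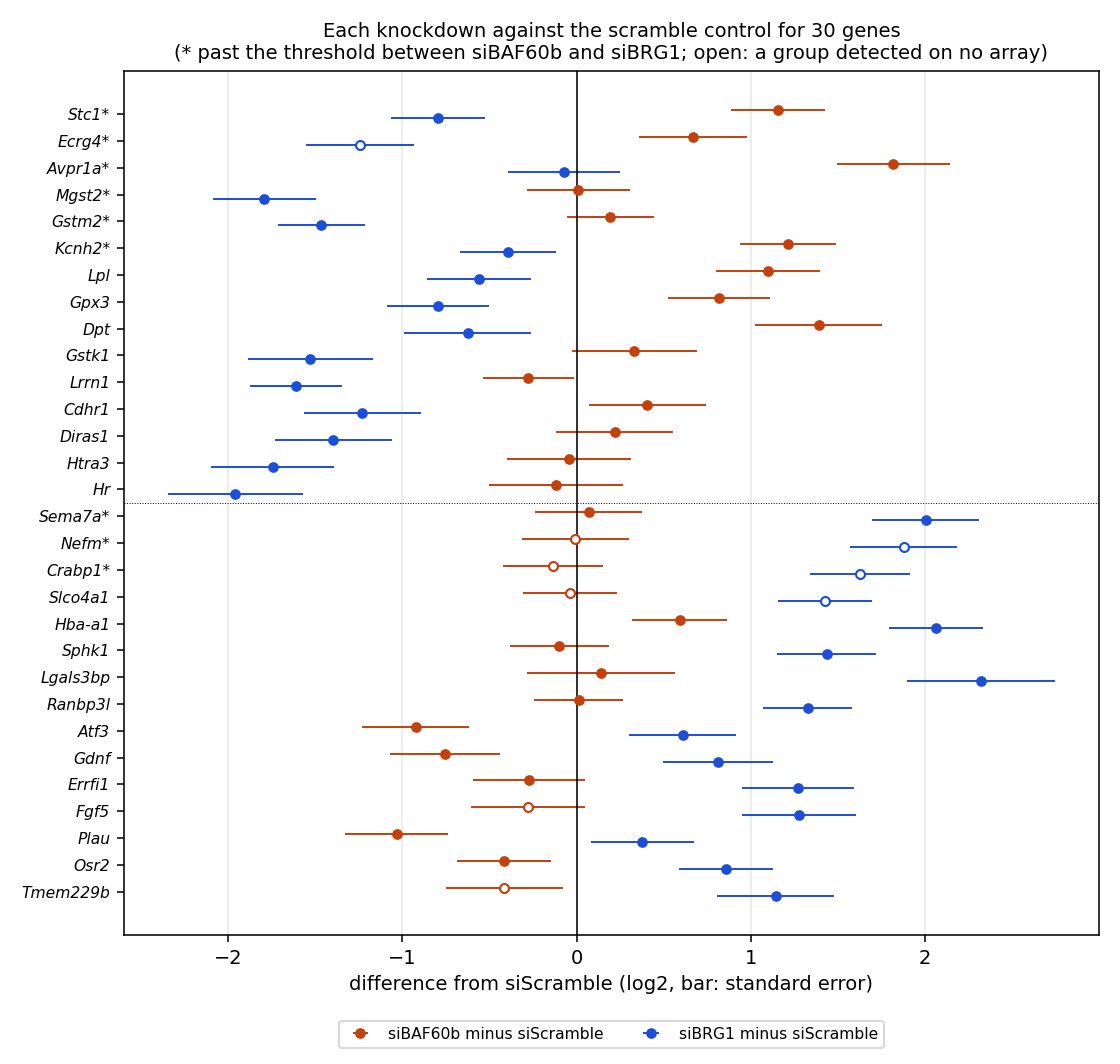
Log2 difference from siScramble, with its standard error, for the 15 genes named in each direction (higher above the dotted line, lower below it), siBAF60b in orange and siBRG1 in blue. Open points mark differences in which one of the groups was detected on no array, so that their distance from 0 is not a measured size. Mgst2, Htra3, Hr, Sema7a and Sphk1 have siBAF60b points near 0 and siBRG1 points far from it, and Avpr1a the reverse. Both points of a gene share the siScramble arrays, which lay on the BeadChips of the siBAF60b arrays.

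Differentiation itself gave a scale that shares no array with the comparison of the knockdowns. In untransfected cells, 1086 genes were called higher in DM than in GM (10.5%) and 924 lower (8.93%), a split that was 199 higher and 1167 lower with median scaling in place of quantile normalization. Of the 1086 genes higher in DM, 694 were above 0 in siBAF60b minus siBRG1 and 392 below, with a median of 0.14, while all genes tested had 4899 above, 5447 below and a median of -0.02. Of the 924 genes lower in DM, 299 were above 0 and 625 below, with a median of -0.16. The same medians on the shared BeadChip were 0.15 and -0.18. Median scaling moved the median of all genes to -0.154, and the 2 sets then stood at -0.02 and -0.31. Unadjusted p was under 0.05 for 117 higher and 27 lower of the 1086 members of the first set and for 22 higher and 100 lower of the 924 members of the second. Over all genes these shares were 3.11% higher and 2.94% lower. Over all 10346 genes the difference between the knockdowns correlated with DM minus GM at r = 0.233, where genes are not independent of each other.

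The calls themselves fell on both sides of this scale. Stc1 was 5.55 higher in DM than in GM, Kcnh2 1.27 and Gstm2 0.80, each called in that comparison too. Sema7a stood at -4.83 in DM minus GM. Avpr1a ran the other way: it was higher in siBAF60b than in siBRG1 cells and lower in DM than in GM (DM minus GM -2.79). Mgst2 (-0.86) was not called between DM and GM, nor were Ecrg4, Nefm and Crabp1, whose signals were near background in both media. Of the uncalled genes above, Dpt (2.45) and Cdhr1 (2.12) were higher in DM, and Gdnf (-3.53), Errfi1 (-3.49) and Slco4a1 (measured at 4.52 and 4.58 in DM, near background, and 7.26 and 7.42 in GM) lower. Osr2 was higher in DM by 2.25 although its knockdown difference was -1.27.

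**Figure D4:**
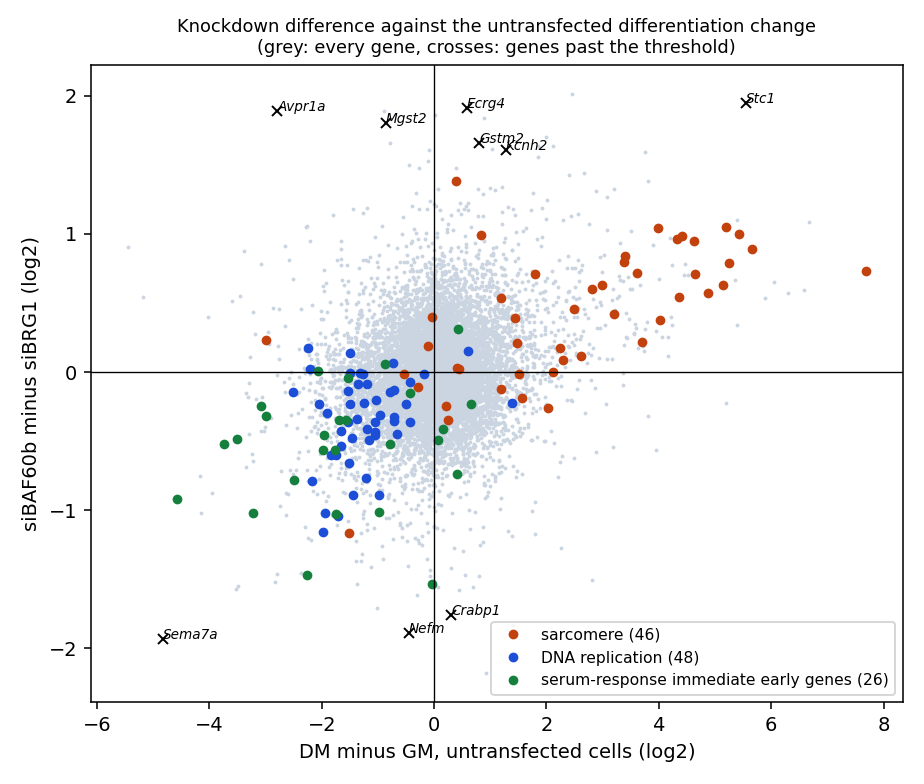
Each point is a gene, with DM minus GM of untransfected cells on the horizontal axis and siBAF60b minus siBRG1 on the vertical axis, both log2; the 9 called genes are crosses, and 3 lists are coloured. Most sarcomere genes lie upper right and most DNA replication and immediate early genes lower left, while Avpr1a and Mgst2 are upper left.

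Genes of the contractile apparatus gave the highest list median among lists with 10 or more measured members. The sarcomere list (46 of 63 measured) had a median difference of 0.44, with 37 members above 0 and 9 below, and none was called. Its median signal was 9.17 and 8.58 in siBAF60b cells, 8.28 and 8.05 in siBRG1 cells and 9.38 and 9.10 in siScramble cells. At an unadjusted p under 0.05, 11 members were higher and 1 lower, against 3.11% and 2.94% of all genes, and arrays did not overlap for 24 higher and 3 lower, against 19.2% and 21.7%. The median on the shared BeadChip was 0.45 and between the second replicates 0.46. Set against siScramble, the members had a median of -0.31 in siBAF60b cells and -0.76 in siBRG1 cells. In untransfected cells 34 of the 46 were called higher in DM than in GM.

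Acta1, skeletal alpha-actin, was 12.82 and 12.53 in siBAF60b cells and 11.96 and 11.41 in siBRG1 cells, a difference of 0.98 (SE 0.34, limma adjusted p = 0.505). Klhl41, a myofibril assembly adaptor, was 10.30 and 10.62 in siBAF60b cells and 9.68 and 9.23 in siBRG1 cells, a difference of 1.00 (SE 0.35). Myl1, a fast myosin light chain, differed by 0.96 with its 2 other probes at 1.04 and 0.80, Tnnt3, fast troponin T, by 0.89, and Actc1, cardiac alpha-actin, by 0.73. Klhl30 had the greatest difference of the list, at 8.34 and 7.95 in siBAF60b cells and 6.79 and 6.73 in siBRG1 cells (1.39, SE 0.31, limma adjusted p = 0.124). Ankrd1, a titin-associated stretch-response protein that untransfected cells had lower in DM, had the lowest difference of the list: it was 10.84 and 10.25 in siBAF60b cells and 11.96 and 11.47 in siBRG1 cells (-1.17, SE 0.30, limma adjusted p = 0.197).

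Membrane systems of the muscle fibre stood on the same side. Excitation-contraction coupling genes (19 of 28 measured) had a median of 0.41, with 15 above 0, no call, and arrays that did not overlap for 13 higher and 1 lower (19.2% and 21.7% over all genes). Casq2, which buffers calcium in the sarcoplasmic reticulum, was 7.41 and 7.34 in siBAF60b cells and 6.57 and 5.97 in siBRG1 cells (1.10, SE 0.40). Stac3, a partner of the voltage sensor, differed by 1.03 (SE 0.37), Jsrp1, a junctional protein, by 0.94, Cacng1, a calcium channel subunit, by 0.82 and Bin1, which shapes the transverse tubule, by 0.65. Dystrophin complex genes (10 of 16 measured) had a median of 0.30, which turned to -0.03 with the BeadChip as a fixed block. In that list Sgca, alpha-sarcoglycan, was 8.33 and 8.27 in siBAF60b cells and 7.23 and 6.98 in siBRG1 cells (1.19, SE 0.26, limma adjusted p = 0.118), with its other probes at 1.37 and, near background, at 0.01, and Sgcb differed by 0.73.

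Neuromuscular junction genes (10 of 15 measured) had a median of 0.27 and no unadjusted p under 0.05. Chrna1, the acetylcholine receptor alpha subunit, was 12.74 and 12.94 in siBAF60b cells and 12.38 and 12.71 in siBRG1 cells (0.30, SE 0.31). Rapsn, which clusters the receptor, differed by 0.55, Musk, the agrin-responsive kinase, by 0.60, Ncam1 by 0.37 and Lrp4, the agrin receptor, by -0.45 (its 2 other probes were near background in both groups). Muscle energy genes (21 of 27 measured) had a median of 0.25. Among them Cox7a1, a muscle form of a cytochrome oxidase subunit, was 8.97 and 8.85 in siBAF60b cells and 7.64 and 7.06 in siBRG1 cells (1.56, SE 0.36, limma adjusted p = 0.14). Fabp3, the muscle fatty acid-binding protein, was 7.92 and 7.86 in siBAF60b cells and 6.66 and 5.91 in siBRG1 cells (1.60, SE 0.37, limma adjusted p = 0.149), while Pdk4, which inhibits pyruvate dehydrogenase, differed by -1.03 and Ckm, muscle creatine kinase, by 0.67.

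Fusion genes (20 of 28 measured) had a median of 0.20, with Jam3 at 1.16 and Dysf, the membrane repair protein dysferlin, at 0.94. None of the muscle lists held a called gene.

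Upstream of these genes, the myogenic regulators (12 of 18 measured) had a median of 0.11, and of -0.09 with median scaling. Myog, myogenin, was 11.09 and 10.20 in siBAF60b cells and 9.70 and 9.41 in siBRG1 cells, with 11.17 and 10.17 in siScramble cells. Its siBAF60b and siBRG1 arrays did not overlap, but the siBAF60b arrays were themselves far apart, and the difference of 1.09 (SE 0.52) did not pass (limma adjusted p = 0.837). Myod1 was 8.65 and 8.39 in siBAF60b cells and 7.64 and 7.71 in siBRG1 cells (0.85, SE 0.37, limma adjusted p = 0.772). Mef2c was not detected in siBAF60b cells (4.93 and 4.98) and was 5.66 and 5.54 in siBRG1 cells, at least 1.20-fold lower in siBAF60b cells. A second Mef2c probe gave -0.26. A list drawn up for genes that restrain myogenesis and their relatives (21 of 29 measured) was split, with 11 members above 0 and 10 below. Its median of 0.08 turned to -0.11 with median scaling. Notch3 was at 1.32 (SE 0.35) and Notch1 at 0.73, against Twist2 at -0.97 (SE 0.26) and Ezh2, the Polycomb methyltransferase, at -0.90. A second Ezh2 probe, near background in both groups, gave 0.15. Hes6, which is not taken here to restrain myogenesis but is counted among the 21 members, was at -0.71. Its 2 other probes gave -0.08 and -0.35. Notch3, Notch1 and Hes6 were higher in DM than in GM, and Twist2 and Ezh2 lower.

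**Figure D5:**
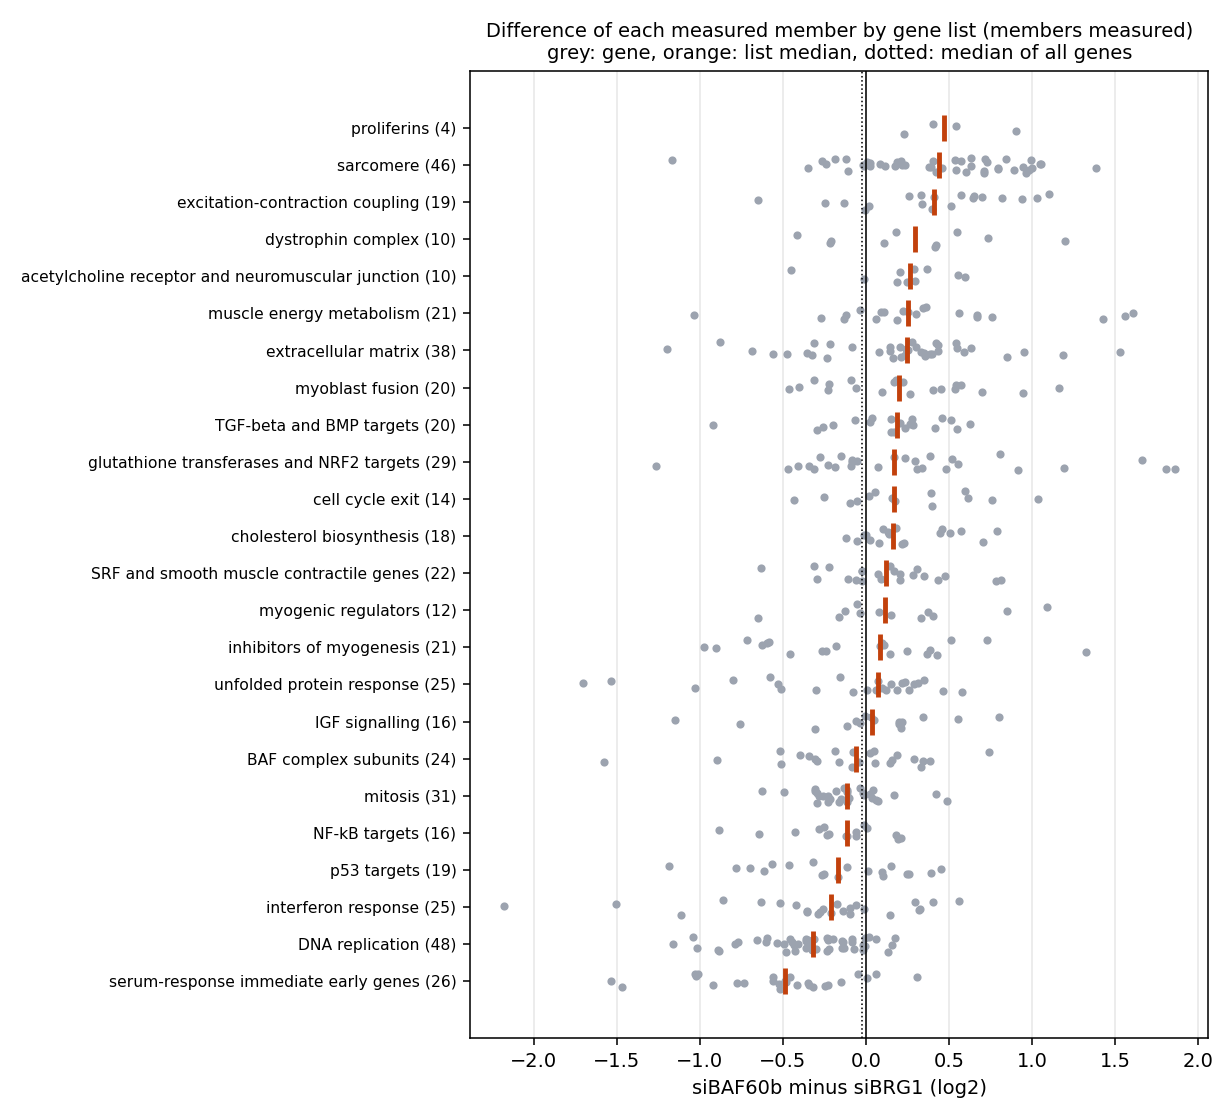
Members of each list are drawn as grey points at their siBAF60b minus siBRG1 difference (log2), with the list median in orange and the median of all genes dotted. The medians of the muscle structure lists lie right of 0 (sarcomere 0.44, excitation-contraction coupling 0.41), and those of DNA replication (-0.32) and immediate early genes (-0.49) lie left.

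Genes of DNA replication stood on the opposite side. Of the 48 measured from a list of 53, 43 were below 0 and 5 above, with a median of -0.32, and none was called. Arrays did not overlap for 29 lower and 0 higher, against 21.7% and 19.2% of all genes. Their median signal was 8.56 and 8.46 in siBAF60b cells, 8.84 and 8.95 in siBRG1 cells and 8.37 and 8.45 in siScramble cells. Cdt1, which licenses origins, was 8.65 and 8.47 in siBAF60b cells and 9.64 and 9.79 in siBRG1 cells (-1.16, SE 0.25, limma adjusted p = 0.121). Its partner Cdc6 was 6.68 and 6.67 in siBAF60b cells and 7.82 and 7.56 in siBRG1 cells (-1.02, SE 0.26, limma adjusted p = 0.19).

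The helicase component Cdc45 (-0.89) and the initiation factor Mcm10 (-0.79) lay on the same side, and the S-phase cyclin Ccne1 was not detected in siBAF60b cells, at least 1.47-fold lower than in siBRG1 cells. On the shared BeadChip the list median was -0.28, and between the second replicates -0.32. Set against siScramble, the median was 0.15 in siBAF60b cells and 0.45 in siBRG1 cells. In untransfected cells 35 of the 48 were called lower in DM. Mitosis genes (31 of 40 measured) had a smaller median of -0.12, with no unadjusted p under 0.05. Foxm1, the mitotic transcription factor, differed by -0.62 and Prc1, a spindle midzone protein, by -0.50, while Pttg1, securin, differed by 0.42.

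Genes of cell cycle exit (14 of 20 measured) had a median of 0.17. Rb1, the retinoblastoma protein, was 11.51 and 11.17 in siBAF60b cells and 10.72 and 10.45 in siBRG1 cells (0.76, SE 0.28). The CDK inhibitors Cdkn2c (0.61), Cdkn1c (0.60), Cdkn2d (0.40) and Cdkn1a (0.39) were above 0, while Cdkn1b stood at -0.10 with overlapping arrays. The growth-arrest gene Gas6 (1.03) was above 0, and E2f5 stood at -0.43. Ccnd1, cyclin D1, was 10.67 and 10.65 in siBAF60b cells and 10.98 and 10.98 in siBRG1 cells (-0.32, SE 0.27). None of these passed.

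Immediate early genes of the serum response had the lowest median among lists with 10 or more measured members. Of 37 genes 26 were measured: 23 were below 0 and 3 above, with a median of -0.49 and no call. Arrays did not overlap for 19 lower and 0 higher, against 21.7% and 19.2% of all genes. Their median signal was 8.34 and 8.47 in siBAF60b cells, 8.84 and 8.71 in siBRG1 cells and 9.23 and 8.90 in siScramble cells. Set against siScramble, the median of the members' differences was -0.31 in siBAF60b cells and 0.14 in siBRG1 cells. For siBRG1 cells the median signal and the median difference thus lay on opposite sides of siScramble. Dusp1, a MAP kinase phosphatase, was 9.63 and 9.48 in siBAF60b cells, 10.52 and 10.64 in siBRG1 cells and 10.93 and 10.82 in siScramble cells (-1.03, SE 0.26, limma adjusted p = 0.19). Egr2 was 6.57 and 7.19 in siBAF60b cells, 8.66 and 8.03 in siBRG1 cells and 7.04 and 7.41 in siScramble cells (-1.47, SE 0.39, limma adjusted p = 0.22). Egr3 differed by -1.01, Atf3 by -1.53 as given above, and Ccn2, connective tissue growth factor, by -0.92.

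In the unfolded protein response list (25 of 29 measured, median 0.07, and -0.13 with median scaling), 15 members were above 0 and 10 below. At an unadjusted p under 0.05, 4 were lower (Atf3, Trib3, Asns and Ppp1r15a) and 0 higher, against 2.94% and 3.11% of all genes. Arrays did not overlap for 8 lower and 4 higher, against 21.7% and 19.2% of all genes. Chac1 (-0.51), Hspa5 (-0.58) and Ddit3 (-0.53) also lay below 0, while Xbp1 (0.46), Sesn2 (0.26) and Slc7a11 (0.24) lay above it. Trib3, a pseudokinase, was 7.87 and 7.72 in siBAF60b cells and 9.47 and 9.52 in siBRG1 cells (-1.70, SE 0.43, limma adjusted p = 0.19), and a second probe near background gave -0.26. Asns, asparagine synthetase, was 10.23 and 10.55 in siBAF60b cells and 11.40 and 11.43 in siBRG1 cells (-1.03, SE 0.29, limma adjusted p = 0.252). Interferon-response genes (25 of 40 measured) had a median of -0.21, with 19 below 0 and 6 above, and arrays that did not overlap for 12 lower and 4 higher (21.7% and 19.2% over all genes). Tap2, a peptide transporter for antigen presentation, differed by -1.51, Isg15 by -0.86 (detected on 1 siBAF60b array) and Irf1 by -0.63. Ifit3 was not detected in siBAF60b cells, where its signal was at least 1.90-fold lower.

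For p53 targets (19 of 24 measured) the median was -0.17, with 11 below 0 and 8 above, against 5447 and 4899 of all 10346 genes. Sesn1 stood at -1.18 (SE 0.29), Bbc3, the apoptosis activator PUMA, at -0.78 (a second, dimmer probe at 0.24) and Plk2 at -0.61. Pmaip1 (0.45) and Cdkn1a (0.39) lay above 0. For NF-kB targets (16 of 22 measured) the median was -0.12 (12 below 0 and 4 above), with the chemokine Cxcl1 at -0.88 and Csf1 at -0.64. No member of these 4 lists was called.

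Glutathione transferases and NRF2 targets held 2 of the 9 called genes, Mgst2 and Gstm2. Of 31 genes 29 were measured, with 16 above 0 and 13 below, a median of 0.17, and 7 higher and 1 lower at an unadjusted p under 0.05 (3.11% and 2.94% over all genes). The list did not move as 1 block. Gstk1 was 7.80 and 7.86 in siBAF60b cells and 5.57 and 6.37 in siBRG1 cells (1.86, SE 0.36, limma adjusted p = 0.083). Hmox1, heme oxygenase 1, was 7.45 and 7.25 in siBAF60b cells, 5.95 and 6.37 in siBRG1 cells and 5.18 and 6.54 in siScramble cells (1.19, SE 0.41). Srxn1, sulfiredoxin, lay on the other side at 8.16 and 8.32 in siBAF60b cells and 9.37 and 9.63 in siBRG1 cells (-1.26, SE 0.31, limma adjusted p = 0.189).

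Matrix genes (38 of 50 measured) had a median of 0.25, with 27 above 0. Lamb1, a laminin chain, was 6.93 and 6.65 in siBAF60b cells and 4.73 and 5.78 in siBRG1 cells, where it was detected on 1 array (1.53, SE 0.36, limma adjusted p = 0.16). The proteoglycans Dcn (1.19, SE 0.37) and Bgn (0.85, SE 0.29) were on the same side, and Thbs2, thrombospondin 2, at -1.20 (SE 0.30) and the protease inhibitor Timp1 at -0.68 on the other. TGF-beta and BMP targets (20 of 27 measured) had a median of 0.19, led by Ccn2 at -0.92 and Tgfb2 at 0.62. In the IGF list (16 of 21 measured) the median was 0.04, and -0.04 with median scaling. Igf1 was 6.49 and 6.44 in siBAF60b cells and 7.57 and 7.66 in siBRG1 cells (-1.15, SE 0.30, limma adjusted p = 0.203). A second, dimmer Igf1 probe gave -0.45, and Igfbp6 stood at 0.80.

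SRF and smooth muscle contractile genes (22 of 28 measured) had a median of 0.12 (-0.04 with median scaling), with Myl9 at 0.81, Actg2 at 0.78 and Csrp2 at -0.63. Cholesterol synthesis genes (18 of 24 measured) had a median of 0.16 (-0.02 with median scaling), with 15 above 0 and Msmo1, a sterol oxidase, at 0.79 and Fdps at 0.57 (its second probe -0.07). The proliferin genes, placental hormones that growing myoblasts make and that are near-identical to each other, were measured for 4 of 5 members. Prl2c2 was 8.89 and 10.05 in siBAF60b cells, 8.31 and 8.81 in siBRG1 cells and 11.20 and 11.92 in siScramble cells. Both knockdowns lay below siScramble, and the difference between them (0.90, SE 0.44) was less than the gap between the 2 siBAF60b arrays.

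Markers of cell types were read beside these results. All 6 skeletal muscle markers were measured and 5 were detected on both arrays of each knockdown, and their summed linear signal was 20690 and 19210 in siBAF60b cells, 14960 and 15800 in siBRG1 cells and 25090 and 24260 in siScramble cells. In RNA from a whole culture, fewer differentiating cells and less muscle RNA per cell cannot be told apart. Of 9 adipocyte markers 3 were measured, with sums of 562.6 and 692.1 in siBAF60b cells and 245.6 and 273 in siBRG1 cells; Lpl made up most of that gap, and Adipoq, Fabp4 and Plin1 were not among the genes tested. Of 9 neuronal markers 5 were measured, with sums of 814.1 and 880.6 in siBAF60b cells and 661.2 and 645.7 in siBRG1 cells. In each replicate Stmn2 alone differed by more than that gap on the linear scale, and the median log2 difference of the 5 was -0.03. Those members lay on both sides, with Nefm called lower, Gap43 at -0.81, Stmn2 at 1.06 and Map2 at 0.65.

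The 1 erythroid marker measured of 5, Hba-a1, was 893.1 and 819.6 in siBAF60b cells and 1929 and 2915 in siBRG1 cells on the linear scale. Of 9 macrophage and endothelial markers 2 were measured, with sums of 82.72 and 79.43 in siBAF60b cells and 75.42 and 81.53 in siBRG1 cells, and Ptprc, Adgre1, Pecam1 and Cdh5 were not among the genes tested. Of 9 osteoblast and chondrocyte markers 5 were measured, with sums of 3077 and 3004 in siBAF60b cells and 4150 and 4506 in siBRG1 cells. Only 1 of them was detected on both siBAF60b arrays, and 1 on both siBRG1 arrays. Their median log2 level was 5.09 and 4.94 in siBAF60b cells and 5.15 and 5.17 in siBRG1 cells, so the sums do not describe the whole list. Sox9 differed by -0.53, Col2a1 by -0.25, Bglap by -0.14, Alpl by -0.01 and Ibsp by 0.10. The part of these markers in the gene differences was not tested.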

How the data were processed

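Total RNA from C2C12 cells was labelled from 500 ng and hybridized to Illumina BeadChips, per the labels' protocols. Per the file headers, the deposited scanner table lists 45281 probes, each with its average signal intensity (linear) and its detection p-value on 12 arrays. The authors also deposited processed intensities for 23165 of the probes, with equal quantiles on every array, used as an alternative. The sources used here do not name the software.

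The scanner intensities went through neqc of limma 3.58.1 (R 4.3.3), which corrects background (offset 16), normalizes by quantiles and takes log2. A probe was kept if its detection p was under 0.05 on 2 or more arrays (17565 probes). Probe names came from the platform annotation: 19589 probes of the processed table had 1 gene symbol, 8 several and 3568 none. The kept probe with the highest mean stood for a gene (10346 genes). All 12 arrays in 6 groups were fitted with lmFit and eBayes (6 residual and 8.17 prior degrees of freedom), with adjustment over all genes of a comparison. The fit was tested on simulated data. The number of arrays limits the precision.

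The comparison, its 24 gene lists and 6 marker lists were chosen with earlier results of these data known. Named genes were the siRNA targets, BAF subunits differing by more than 0.5, the called genes filled to 15 per direction by unadjusted p among genes whose arrays did not overlap, up to 5 members of a list by moderated t, 10 fixed differentiation genes, and up to 8 per direction of the genes called between DM and GM.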

Additional observations from a re-analysis of the deposited data

How the results depend on the processing

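The 9 calls between siBAF60b and siBRG1 became 8 without background correction and 8 with the authors' values (4 of the 9 shared each time), 7 with probes averaged, 9 with either other filter, and 0 with median scaling (178 genes at an unadjusted p under 0.05 in limma) or with the BeadChip as a fixed block (866 such genes; adjusted p of the 9 genes 0.0545 to 0.0778). The count was 16 with the replicate block, 16 with the BeadChip as a random block, 29 with only the 4 arrays compared, 14 with the 8 transfected arrays, 52 without DM and 177 with array weights; the causes were not tested. Leaving out 1 array gave 0 calls in each of the 4 cases, with 320 to 605 genes at an unadjusted p under 0.05. Deviations of same-numbered siBAF60b and siBRG1 arrays correlated at 0.137, and 2 replicate numbers do not establish a pairing.

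Against siScramble, the 1 siBAF60b call became 2 without background correction, 2 with the authors' values, 0 with median scaling, 4 with the BeadChip block, 3 with the replicate block, and 0 to 1 with 1 array left out. The 29 siBRG1 calls became 39 without background correction (22 of the 29 shared) and 24 with the authors' values (17 shared). They became 25 with the BeadChip block (18 shared) and 34 with the replicate block (27 shared). With median scaling the count was 0, and it fell steeply with any 1 array left out, as given above. The 2010 calls between DM and GM ranged from 937 (without GM replicate 2) to 3471 (without DM replicate 1).

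Of 2598 values of 153 named genes under alternatives, 3 changed sign: Smarca2 (0.27) and Lrp4 (0.042) with probes averaged, and Prl2c4 (-0.18 to 0.98 with 1 array left out). Of 153 values of the called genes none did. Of 442 list medians 14 changed sign, 7 under median scaling. Dim genes such as Nefm, Crabp1 and Ecrg4 are limited by background.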

Other observations

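A further transfected group, given siRNA against BAF60c (2 arrays), gave these log2 levels for the genes called between siBAF60b and siBRG1. Sema7a was 8.02 and 7.64 and Nefm 6.95 and 6.37 in siBAF60c cells, while Crabp1 was 4.93 and 4.78. Stc1 was 10.77 and 10.59, Gstm2 11.42 and 11.21, Mgst2 8.24 and 9.06, Avpr1a 7.69 and 8.37, Kcnh2 6.64 and 6.09 and Ecrg4 6.03 and 5.29. By group means, Sema7a, Nefm, Kcnh2 and Ecrg4 lay nearer the siBRG1 arrays, and Stc1, Gstm2, Mgst2, Avpr1a and Crabp1 nearer the siBAF60b arrays, so genes of both directions were on each side. This is a description of 2 arrays with no test.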
